A study of Mus musculus with 2 samples.

Results

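The 43 genes described here encode Myc, nucleolar proteins that process ribosomal RNA and assemble ribosomal subunits, RNA polymerase I with its transcription factors, and the RNA exosome. They were chosen by name, with earlier results of these arrays in view, out of 20659 named genes on the array. Of the 43 genes, 42 had a probe well above background on both arrays, by the flag of the scanner software, and 15025 named genes did so in all. Utp18, a gene for processing the small subunit RNA, was not well above background on either array, with processed signals of 9.71 and 7.40. The dimmest member that passed was Rrp12, with 28.0 for PBS and 25.7 for miR-122.

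The cells were RAW246.1 cells, described in the labels as macrophages and grown in DMEM. A mock culture received PBS, and the other received 5 μg/mL of synthetic miR-122, the main microRNA of liver cells. RNA of each culture was labelled with Cy3 and hybridised to 1 one-colour Agilent mouse array, so each group held 1 array. The study asked how liver miR-122 bears on the inflammatory activation of alveolar macrophages, whereas these arrays measured a cultured line. Neither the genotype of the line nor the length of treatment is given in the sources used here.

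With 1 array per group, no difference below has a p-value or a spread between cultures, and values are descriptions of these 2 arrays. The title of the treated sample reads as though the microRNA had been omitted, and both samples carry the same treatment text. Groups follow the source names, and they were not checked against any gene on the array. Of 9 macrophage markers on the array, 7 were well above background with PBS and 8 with miR-122. Mertk was above it on neither array, and Cd163 only with miR-122. Of 43 markers of 7 other cell types on the array, 30 were well above background with PBS and 27 with miR-122, at levels of at most 1.86 and 1.94. Their part in the differences below was not tested. The hepatocyte markers Alb and Apoa1 and the B cell markers Ms4a1 and Cd79b were not well above background on either array. Other markers of these lists were: 7 of 9 hepatocyte markers with PBS and 6 with miR-122, and 3 of 5 B cell markers on each array. Of all probes, 71.8% were well above background with PBS and 69.9% with miR-122.

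Ribosomes are built in the nucleolus. RNA polymerase I transcribes a long precursor, small nucleolar ribonucleoproteins (snoRNPs) guide its chemical modification, and assembly factors cut and fold it into the small and the large subunit. The RNA exosome trims the 3′ ends of precursors and degrades their spacers, and Myc is a transcription factor known to activate many of these genes when cells grow.

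A level is the log2 signal of a probe after subtraction of the 75th percentile of its array. A difference is the level with miR-122 minus the level with PBS. Levels are not compared between genes, since probes differ in brightness. In a culture, a smaller share of cells with a transcript and less of that transcript per cell cannot be told apart.

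Most members had a lower level with miR-122 than with PBS. The median difference over the 42 genes was -0.43, against 0.09 over all 15025 genes. Negative differences were found for 33 members, or 78.6%, where 39.7% of all genes had one. At least 1.5-fold lower were 10 members, or 23.8%, against 5.99% of all genes, and at least 1.5-fold higher were 2 members, or 4.76%, against 12.1% of all genes. Past 2-fold there was 1 member lower and 1 higher, where 1.78% of all genes were 2-fold lower and 4.58% were 2-fold higher. Since the members were chosen with these differences known, the counts describe the choice and are not evidence of a shared change.

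The differences were modest in size. Besides the 10 genes past 1.5-fold, 18 members were between 1.2-fold and 1.5-fold lower, so 28 were at least 1.2-fold lower. Fbl differed least among these 28, and 16.1% of all measured genes had a lower difference than Fbl. The error estimate that the scanner software gives each spot, carried to the difference, lay between 0.20 and 0.29 for the members. The difference was larger than this estimate for 33 members, 30 of them lower and 3 higher. The same count was not made over all genes, so it says nothing particular about the members. This estimate covers the measurement of a spot and leaves out any variation between cultures. The pooled standard deviation of the difference between probes of 1 gene was 0.30 over 3575 genes.

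**Figure D1:**
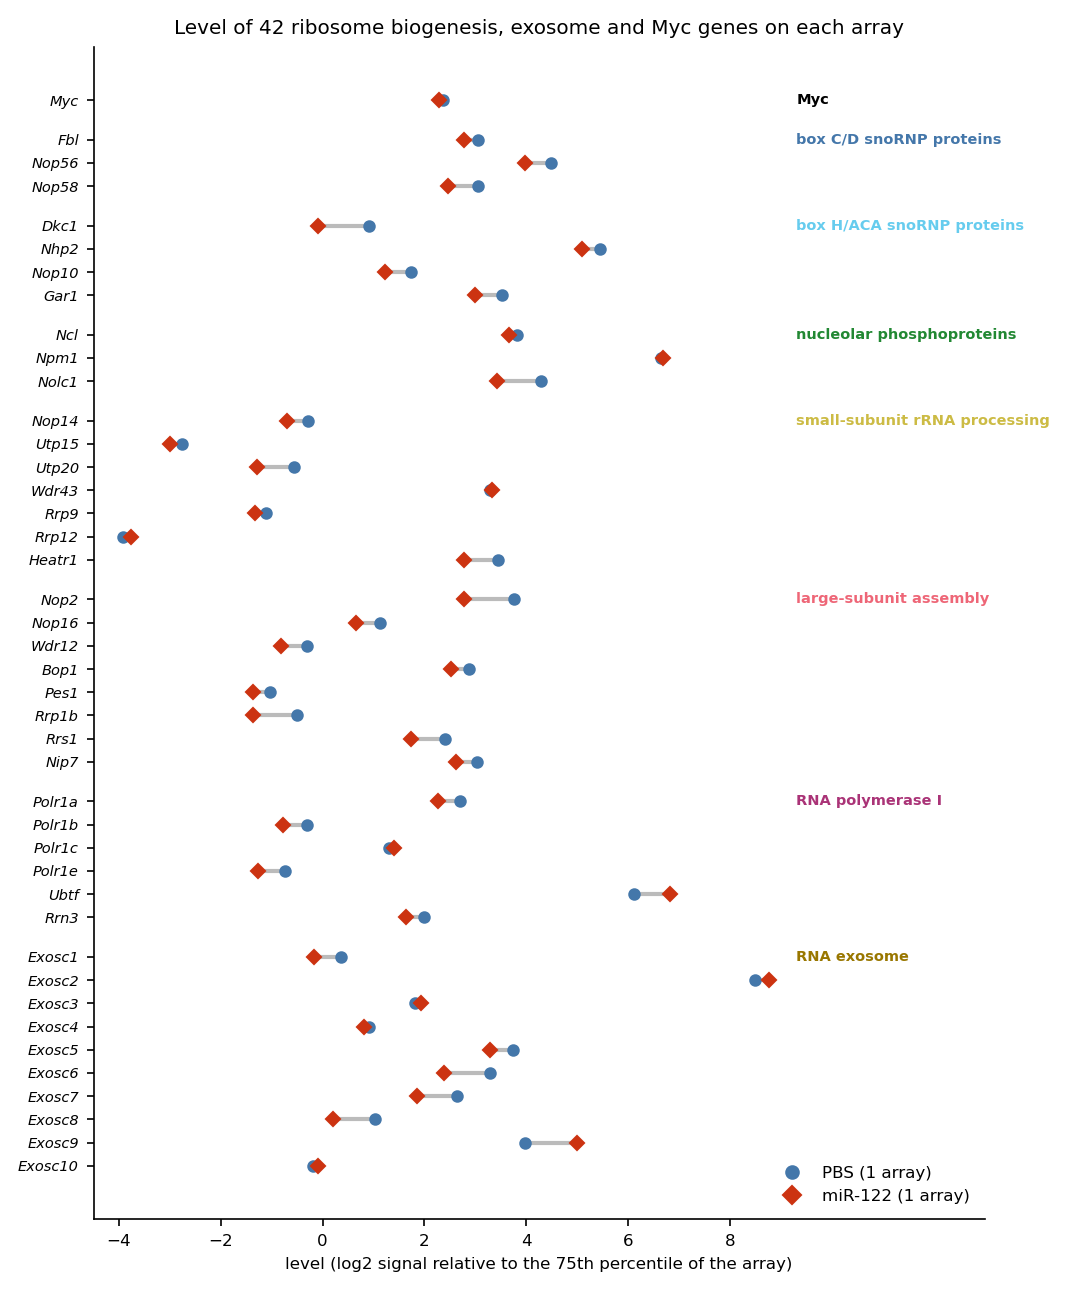
Level of each of the 42 measured members (x axis, log2 signal relative to the 75th percentile of the array), with a circle for the PBS array and a diamond for the miR-122 array, grouped by role. The diamond lies left of the circle for 33 genes, and Ubtf and Exosc9 have the widest gaps in the opposite direction.

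Scaling each array on its median in place of the 75th percentile shifted the median of all genes by -0.18 and put the members' median at -0.60, with 23 members past 1.5-fold on the lower side and 1 on the higher. In that setting 10.5% of all genes were 1.5-fold lower and 7.52% higher. Relative to the median of all genes, the members' median was 0.52 lower with either scaling, since this shift is the same for every gene. Over all settings it was between 0.45 and 0.58 lower.

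**Figure D2:**
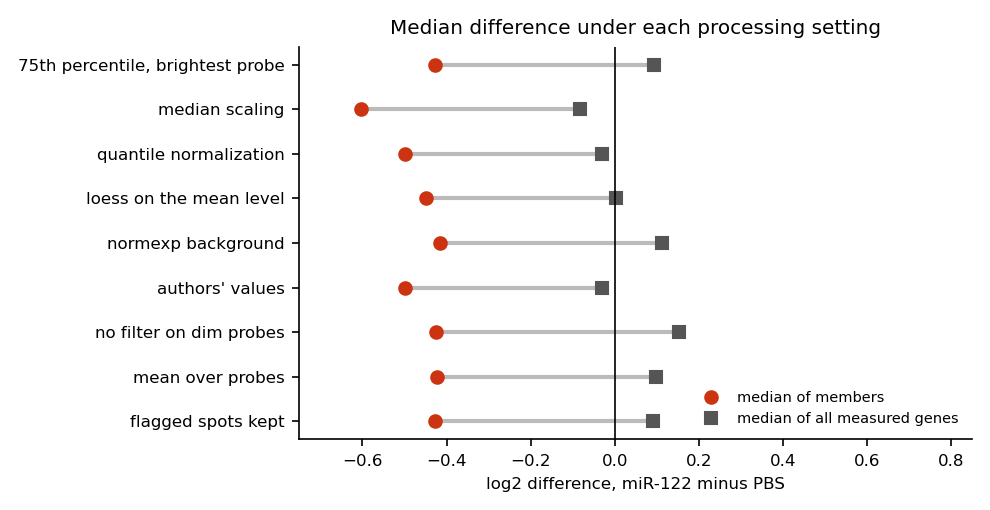
Median log2 difference (x axis, miR-122 minus PBS) of the members (circles) and of all measured genes (squares) under each of 9 processing settings, the first being the one used. The members' median lies between -0.60 and -0.42 and is below that of all genes in every setting.

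Myc itself differed little. Its level was 2.36 with PBS and 2.28 with miR-122, a difference of -0.08 with an error estimate of 0.20. Thus the Myc levels of the 2 arrays differed by less than the error of the spots with the scaling used. The processed signals of Myc before scaling were 2155 with PBS and 1685 with miR-122. Of all measured genes, 31.7% had a lower difference than Myc. The other processing settings placed Myc between -0.25 and -0.08, and the -0.25 of median scaling exceeds the error estimate.

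The box C/D snoRNP proteins direct 2′-O-methylation of ribosomal RNA. Fbl, the methyltransferase fibrillarin, had levels of 3.06 with PBS and 2.78 with miR-122, a difference of -0.28. Nop56 had 4.49 and 3.97, and Nop58 had 3.05 and 2.47. These scaffold proteins of the particle differed by -0.53 and -0.58, so that all 3 core genes of this class had negative differences, and they remained negative under every processing setting tried. None reached 1.5-fold as counted here, Nop58 being just under it. Other settings put Nop58 and Nop56 past it, at -0.76 and -0.70 with median scaling and at -0.67 and -0.68 with quantile normalization.

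The box H/ACA snoRNP proteins direct pseudouridylation, and all 4 genes of this class were lower. Dkc1, which encodes the pseudouridine synthase dyskerin, had a level of 0.92 with PBS and of -0.10 with miR-122. This difference of -1.01, or 2.02-fold lower, was the most negative of all members with the scaling used, and 1.76% of all measured genes had a lower one. Gar1 had levels of 3.53 and 2.99, Nop10 had 1.74 and 1.22, and Nhp2 had 5.44 and 5.09. Those 3 partner subunits differed by -0.54, -0.52 and -0.36, so within the particle the catalytic subunit had the largest difference. With normexp background correction Dkc1 differed by -0.90, under 2-fold. Nop2 was more negative than Dkc1 with quantile normalization, the authors' values and normexp, and Exosc6 with normexp.

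Of the abundant nucleolar phosphoproteins, Nolc1, a chaperone of snoRNPs, had the largest difference. Its level was 4.28 with PBS and 3.43 with miR-122, or 1.80-fold lower. Ncl, which encodes nucleolin, had 3.82 and 3.66 by its brightest probe, a difference of -0.16, and a dim second probe differed by -0.77. Npm1, which encodes nucleophosmin, was measured by 5 probes whose differences ran from -0.32 to 0.04. The brightest gave 6.64 and 6.68, and its difference turned negative under other scalings.

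**Figure D3:**
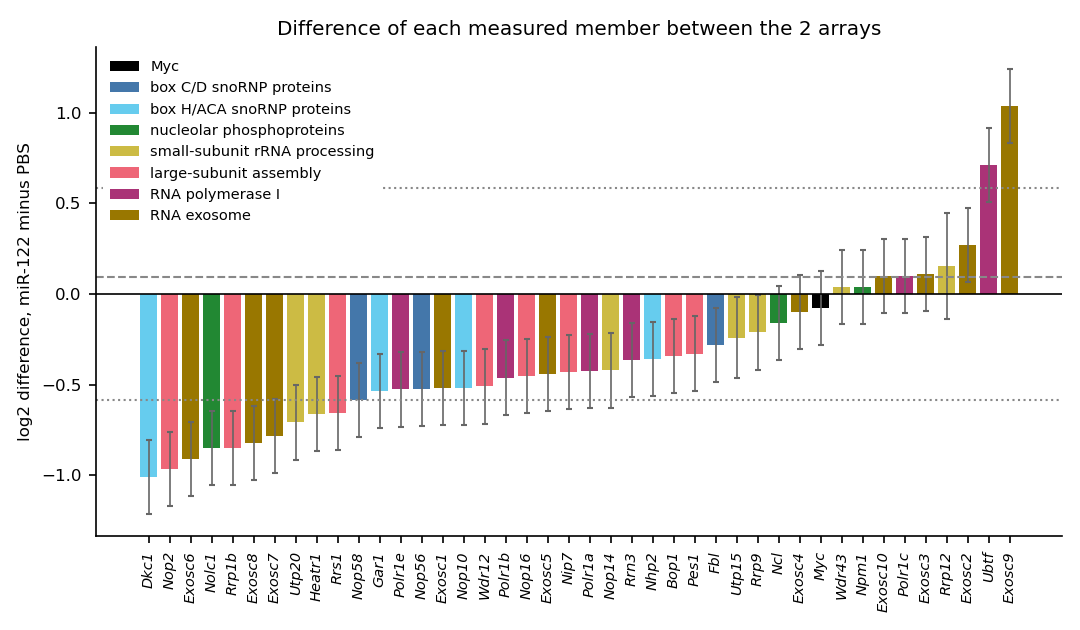
Log2 difference (y axis, miR-122 minus PBS) of each measured member, in order, coloured by role; whiskers are the error estimate of the scanner software for 1 spot per array (the mean over 10 spots for Polr1c), and leave out variation between cultures. The dashed line is the median of all measured genes, 0.09, and the dotted lines mark 1.5-fold; 10 bars pass the lower line and 2 the upper.

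Genes for processing the small-subunit precursor varied among themselves. Utp20, a large scaffold protein of the processome, had levels of -0.57 and -1.28 and was 1.63-fold lower, and Heatr1, which also supports transcription by RNA polymerase I, had 3.43 and 2.77 and was 1.58-fold lower. Nop14 differed by -0.42, Utp15 by -0.24 and Rrp9, a protein of the U3 snoRNP, by -0.21. Rrp12, a factor in the late maturation and export of the subunits, was dim on both arrays and differed by 0.16, within its error estimate of 0.29. Wdr43, a WD-repeat protein of the processome, differed by 0.04 with its brightest probe and by -0.42 with a dimmer one. Of the 7 measured genes, 2 passed 1.5-fold, and Utp20 was at -0.53 with normexp. The signs of Utp15, Rrp12 and Wdr43 turned under other settings.

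By contrast, the 8 genes for assembly of the large subunit were all lower. Nop2, a cytosine methyltransferase of the large-subunit RNA, had levels of 3.75 with PBS and 2.78 with miR-122, or 1.96-fold lower. Rrp1b had -0.51 and -1.36, or 1.80-fold lower, and Rrs1, which helps to bring the 5S particle into the subunit, had 2.40 and 1.74, or 1.58-fold lower. These 3 genes were at least 1.5-fold lower under every setting tried. The PeBoW complex, which is needed to make the 5.8S and 28S RNA ends, consists of Pes1, Bop1 and Wdr12. Its genes differed by -0.33, -0.34 and -0.51, so all 3 subunits were lower by similar amounts. Nop16 differed by -0.46 and Nip7 by -0.43. The signs of all 8 genes were negative under every setting.

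Within the RNA polymerase I machinery the specific subunits and the bright probe of a transcription factor went opposite ways. Polr1a and Polr1b, the 2 largest subunits that form the active centre, had levels of 2.70 and -0.31 with PBS and of 2.28 and -0.77 with miR-122. They were 1.34-fold and 1.38-fold lower. Polr1e, a subunit of the polymerase I heterodimer, differed by -0.53, and Rrn3, the factor that makes the polymerase competent to start, by -0.36. Polr1c, a subunit shared with RNA polymerase III, was printed 10 times and had 1.30 and 1.40, with standard deviations over the spots of 0.06 and 0.07. Its difference of 0.10 was close to the median of all genes and turned negative with median scaling.

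Ubtf, which encodes the architectural factor UBF of ribosomal gene chromatin, depended on the probe. The bright probe had levels of 6.11 and 6.83 and was 1.64-fold higher. The other probe had -1.29 and -1.44 and differed by -0.15. The mean over both probes was 0.28, and the part that probe sequence or transcript forms have in this was not tested.

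**Figure D4:**
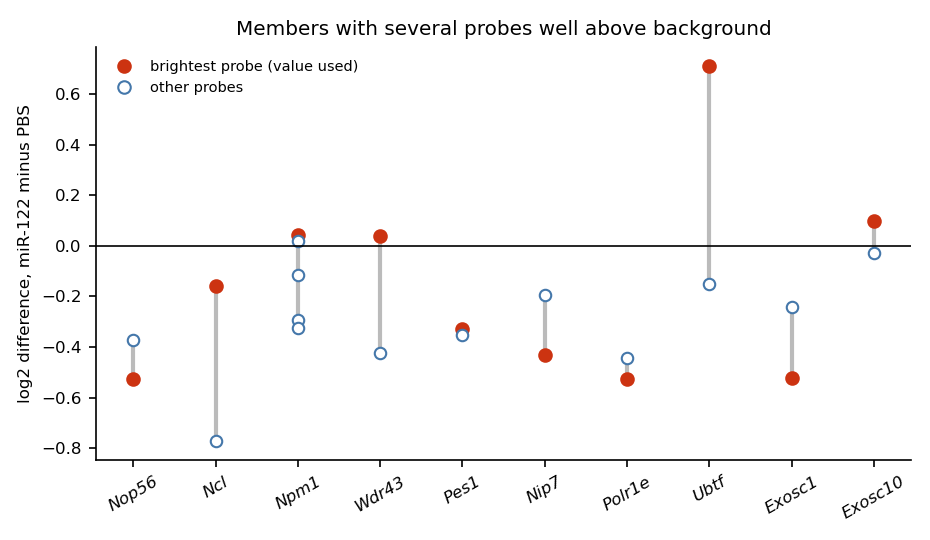
Log2 difference (y axis, miR-122 minus PBS) of every probe well above background on both arrays, for the 10 members with several such probes; filled points are the brightest probe, whose value is used, and open points the others. The probes of Npm1, Wdr43, Ubtf and Exosc10 lie on both sides of 0, and those of the other 6 genes lie below it.

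Probes of 1 gene thus set a limit on single values. Of the 10 members with several probes on both arrays, 4 had probes of opposite sign, and the probes of a gene differed by between 0.02 for Pes1 and 0.86 for Ubtf. Over all 55 member probes well above background on both arrays, 45 had negative differences. The matching share over all probes of the array was not computed. The other 32 measured members rest on 1 probe each.

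The RNA exosome is a barrel of 6 subunits, capped by 3 RNA-binding subunits and joined by nucleases. Its genes did not all differ in the same direction. Of the 6 ring genes 5 had negative differences, with a median of -0.61, and 3 were at least 1.5-fold lower under every setting. Exosc6 had levels of 3.30 with PBS and 2.39 with miR-122 and was 1.88-fold lower. Exosc8 had 1.03 and 0.21, or 1.77-fold lower, and Exosc7 had 2.65 and 1.86, or 1.72-fold lower. Exosc5 differed by -0.44, and Exosc4 by -0.10, within its error estimate of 0.20.

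Exosc9, also a ring subunit, was the member with the largest positive difference. Its level was 3.97 with PBS and 5.00 with miR-122, 2.05-fold higher, and 95.7% of all measured genes had a lower difference. It lay between 0.85 and 1.04 under the other settings, and rests on 1 probe. Of the cap genes, Exosc1 was 1.43-fold lower, Exosc3 differed by 0.11 and Exosc2 by 0.27. Exosc10, the nuclear 3′ exonuclease of the complex, differed by 0.10 with a level of -0.19 with PBS and of -0.09 with miR-122. Exosc2 differed by 0.06 with quantile normalization and 0.05 with loess. It rests on 1 probe, whose processed signals before scaling were nearly equal, 151203 with PBS and 150561 with miR-122. The signs of Exosc3 and Exosc10 turned negative with median scaling.

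A list of 18 genes held further nucleases and cofactors of the exosome. It also held exonucleases outside the exosome, among them Xrn1 and Xrn2. Of the 18 genes, 9 had negative and 9 positive differences, with a median of 0.02 whose sign turned under other scalings. At least 1.5-fold lower was 1, or 5.56%, against 5.99% of all genes, and at least 1.5-fold higher were 2, or 11.1%, against 12.1%. These shares are near those of all genes. The lower gene was Dis3, the catalytic subunit of the nuclear complex, with levels of 2.47 and 1.72, or 1.68-fold lower. Xrn1, the cytoplasmic 5′ exonuclease, had -1.94 and -1.02, or 1.89-fold higher, and Tent4a, a non-canonical poly(A) polymerase, was 1.84-fold higher. Xrn2, the nuclear 5′ exonuclease, differed by 0.51. With normexp Xrn1 differed by 0.63.

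Further genes of ribosome assembly, listed by function with earlier results of these arrays known, had medians closer to 0 than the members. The members' median was -0.43 in all, -0.24 for their small-subunit genes and -0.48 for their large-subunit genes. Since the members were chosen with their differences known, this comparison describes the choice. Of 44 other measured genes for the small subunit, 31 had negative differences, or 70.5%, against 39.7% of all genes. Their median was -0.18. Lower by 1.5-fold or more were 6 genes, or 13.6%, against 5.99% of all genes. Higher by that much were 0, against 12.1% of all genes. Nat10, an RNA cytidine acetyltransferase that acts on small-subunit RNA, was 2.01-fold lower, Pwp2 1.62-fold, Tsr1 1.61-fold and Rcl1 1.59-fold lower. For the large subunit, 32 of 43 other genes had negative differences and the median was -0.21; 4 were lower by 1.5-fold or more, and 0 were higher. Ppan was 1.87-fold lower, Gnl3, which encodes nucleostemin, 1.67-fold, the AAA ATPase gene Mdn1 1.59-fold and the GTPase gene Gtpbp4 1.53-fold lower. The medians of both lists of other genes stayed negative under every setting, at their closest to 0 at -0.17 and -0.21.

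The machinery that assembles snoRNPs had a median of -0.27 over 11 genes, with 0 past 1.5-fold. Of these genes 8 were negative, or 72.7%, against 39.7% of all genes. Snu13, which binds box C/D RNA as the fourth core protein of that particle, differed by -0.43, the helicase gene Ruvbl2 by -0.44, Shq1, a chaperone of dyskerin, by -0.41 and Znhit6 by -0.39. Other genes of RNA polymerase I transcription had a median of -0.00 over 11 genes, with 6 negative differences, or 54.5%, and 5 positive. Among them 0 passed 1.5-fold. Taf1b, of the promoter selectivity factor, differed by 0.12. The largest differences among them, -0.42 for Polr2l, -0.31 for Polr2e and -0.30 for Polr2h, belonged to subunits shared by the 3 nuclear polymerases.

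Cytosolic ribosomal protein genes encode the protein part of the finished ribosome. Of 82 measured genes, 0 passed 1.5-fold in either direction, and their differences ran from -0.16 to 0.50. Among all genes 5.99% were lower and 12.1% higher by that much. Their median of 0.08 was 0.01 below that of all genes, where the members' median was 0.52 below it. Rps12 differed by 0.50, Rpl7 and Rpl27 by 0.40 each and Rps20 by 0.37. The sign of the median turned under other scalings, and with quantile normalization and with the authors' values it was -0.14, against -0.03 over all genes. Many of these genes have processed pseudogenes, and a probe may take up related transcripts.

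**Figure D5:**
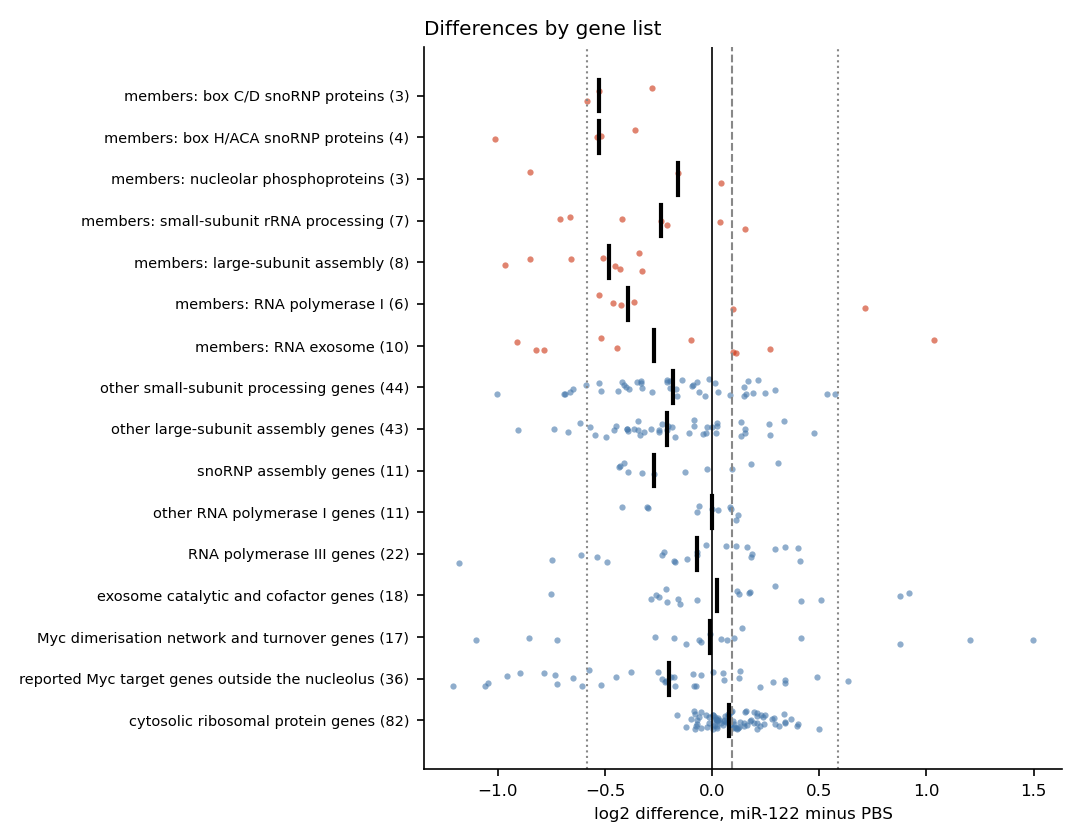
Log2 difference (x axis, miR-122 minus PBS) of each measured gene by list, with the number of genes in parentheses; red points are members, blue points the other lists, and black bars the median of a list. The dashed line is the median of all measured genes, 0.09, and the dotted lines mark 1.5-fold; the 82 ribosomal protein genes lie between -0.16 and 0.50.

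Several genes of the Myc network had larger differences than Myc. Myc acts as a dimer with Max, and Mxd proteins compete for Max and repress. Max had levels of 3.26 with PBS and 4.13 with miR-122, or 1.83-fold higher. Mxd1 had 2.94 and 4.14, or 2.30-fold higher, and stayed between 1.03 and 1.66 under every setting. The related gene Mycn, named after its values were seen, had 3.41 and 2.56 and was 1.81-fold lower. Pim1, a kinase gene, was 2.82-fold higher but dim on the PBS array, with a difference of 0.86 under normexp, and the mitotic kinase gene Aurka was 2.15-fold lower. Of the 17 measured genes of this network, 3 passed 1.5-fold in each direction, or 17.6% each. Of all genes, 5.99% were at least 1.5-fold lower and 12.1% higher. The median of the 17 genes was -0.01, a value whose sign turned with normexp. Mycl, counted among the 3 lower genes and named after its values were seen, was dim, with levels of -3.58 and -4.30, and differed by 0.06 with normexp.

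Reported Myc target genes outside the nucleolus, a list written from general knowledge, had a median of -0.20 over 36 genes. Negative differences were found for 25 of them, or 69.4%, against 39.7% of all genes. Lower by 1.5-fold or more were 10, and 1 was higher. The latter 2 counts are 27.8% and 2.78%, against 5.99% and 12.1% of all genes. The 4 genes with the largest differences were all lower. Umps, which makes uridine monophosphate, was 2.09-fold lower, Ppat, the first enzyme of purine synthesis, 2.07-fold and the spermidine synthase gene Srm 1.94-fold lower. Shmt1, a folate enzyme gene, was 2.31-fold lower, but differed by -0.37 with normexp. Other genes of the same pathways, named after their values were seen, went both ways. Odc1, of polyamine synthesis, was higher by 0.49 and Mthfd2, a folate enzyme gene, by 0.29. Cad, of pyrimidine synthesis, was higher by 0.34 but dim, with levels of -2.83 and -2.49. The folate enzyme genes Mthfd1, Mthfd1l and Shmt2 were lower, at -0.73, -0.45 and -0.19. So were Gart, Paics and Impdh2, of purine synthesis, at -0.72, -0.58 and -0.79. The median stayed negative under every setting, between -0.38 and -0.20.

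Myc binds the E-box letters CACGTG, and the start regions of the members were searched for them on both strands, a palindrome that reads alike on each. RefSeq promoter sequences of GRCm38.p6, from 250 bases before to 50 after the start, were matched for 35 of the 43 members; the other 8 are Myc, Fbl, Npm1, Rrp12, Rrs1, Bop1, Exosc4 and Exosc9. Of the 35 matched members, 7 held CACGTG in at least 1 start region, or 20%, against 8.09% of 27025 genes with such a sequence. Of the 11986 genes that were also well above background on both arrays, 10.6% held it. The 7 include Utp18, which was not well above background. Among measured members, 6 held the letters and 28 did not. A match of letters is not a bound site, and binding was not measured. The stretches around the motif are shown for 6 of the 7 because they place the letters relative to the start, each from 5′ to 3′ on the strand of the gene, with CACGTG in capitals.
Nop2, chr6:125131796-125131855, plus strand, motif starting 60 bases before the start: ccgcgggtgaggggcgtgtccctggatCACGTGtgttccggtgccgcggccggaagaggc
Exosc5, chr7:25659082-25659141, plus strand, 44 bases before the start: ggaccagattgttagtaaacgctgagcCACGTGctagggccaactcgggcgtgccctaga
Rrn3, chr16:13780624-13780683, plus strand, 48 bases before the start: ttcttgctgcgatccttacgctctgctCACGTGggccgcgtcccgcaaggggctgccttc
Rrn3, chr16:13780457-13780516, plus strand, 215 bases before the start: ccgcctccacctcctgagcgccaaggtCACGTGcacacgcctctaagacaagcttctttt
Utp18, chr11:93885754-93885813, minus strand, 20 bases before the start: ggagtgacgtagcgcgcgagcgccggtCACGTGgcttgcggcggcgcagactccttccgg
Pes1, chr11:3963950-3964004, plus strand, from base 3 of the transcript: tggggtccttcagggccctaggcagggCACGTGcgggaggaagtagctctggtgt
Wdr43, chr17:71616205-71616244, plus strand, from base 18 of the transcript: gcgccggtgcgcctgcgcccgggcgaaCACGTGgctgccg

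The seventh, Utp20, held the letters further inside its transcript. In Nop2, Exosc5, Utp18 and at 1 of the places in Rrn3, the motif lay within 60 bases before the start. Of these genes Nop2 was 1.96-fold lower, Exosc5 1.36-fold and Rrn3 1.29-fold lower on the miR-122 array, and Utp18 was not measured. Over the 6 measured members with CACGTG the median difference was -0.40, and over the 28 without it -0.49. The medians of both sets lay below 0, and Dkc1 held no CACGTG in its window.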

How the data were processed

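Per the file headers, Agilent Feature Extraction 11.0.1.1 wrote the deposited intensities, as background-subtracted and detrended spot signals that were not normalized between arrays. The authors also deposited a table of log2 values, with its normalization not stated. Both columns have a median of 5.16 and correlate at 0.997 with their own array and 0.985 with the other. The member differences from these values nearly equal those with quantile normalization, at -0.68 for Nop56 and -1.09 for Nop2 in both. Outlier spots of either array and 1377 controls were left out, spots of a probe were averaged on the log2 scale, and the 75th percentile of each array was subtracted. Accessions, without versions, were matched to RefSeq symbols of GRCm38.p6, used for names only, for 27232 of 39427 probes. Each gene was represented by the brightest of its probes that were well above background on both arrays. No spot was saturated; 71.8% of probes were well above background with PBS and 69.9% with miR-122. The median standard deviation over repeated spots was 0.06 on either array. The number of arrays limits the precision. Scaling and background alternatives used R 4.3.3 and limma 3.58.1, the rest Python 3.11.15, numpy 2.4.6 and pandas 2.3.3. Counting was tested on simulated data with spot noise only. This checks the counting step and leaves out scaling, differences between probes and variation between cultures. Members and lists were chosen with earlier results of these data known. All members are named, and up to 4 genes with the largest absolute difference of each other list. In the polymerase I list, 3 symbols had no match in the name table and are not analysed here. Apart from 1 gene that this rule names, which is not reported here, the named genes are given with their values.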

Additional observations from a re-analysis of the deposited data

How the results depend on the processing

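The differences were recomputed with quantile normalization, with median scaling, after a loess fit (span 0.3) against level, with normexp (offset 50, on median spot intensities), from the authors' log2 values, without a filter on dim probes, with the mean over probes and with flagged spots kept. No paired analysis was possible because each group held 1 array, and no array could be left out. The median of all genes shifted by -0.18 with median scaling and by -0.12 with quantile normalization and with the authors' values. The members' median lay between -0.60 and -0.42, and between 0.45 and 0.58 below that of all genes. Members at least 1.5-fold lower numbered 23 with median scaling and between 10 and 13 otherwise. Members at least 1.5-fold higher numbered 1 with every scaling alternative, the authors' values and the mean over probes. Members at least 2-fold lower numbered 5 with median scaling, 2 with quantile normalization and the authors' values and 0 with normexp; 2-fold higher were 0 with the scaling alternatives and the authors' values. Of members past 1.5-fold, 83.3% were lower, or 95.8% with median scaling. Among all genes the shares lower and higher by 1.5-fold were 10.5% and 7.52% with median scaling, 7.95% and 8.19% with quantile normalization and 7.17% and 8.75% with loess. The median of the 3 phosphoprotein genes was -0.46 with the mean over probes, where the dim Ncl probe counts. Of the 42 members, 35 kept their sign in all 8 alternatives, 32 negative and 3 positive, and 9 were at least 1.5-fold lower in each. These counts were not made over all genes. Quantile normalization and the authors' values gave nearly the same differences, so they are not independent alternatives. Signals near background, such as those of Rrp12 and Utp15, limit what these arrays resolve.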

Other observations

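RNA polymerase III makes the 5S ribosomal RNA and transfer RNAs. Over 22 measured genes of this polymerase and its factors the median difference was -0.07. Negative differences were found for 13, or 59.1%, against 39.7% of all genes, and positive ones for 9. At least 1.5-fold lower were 3, or 13.6%, against 5.99% of all genes. At least 1.5-fold higher were 0, against 12.1% of all genes. Polr3g, a subunit found in an alternative form of the enzyme, had levels of 0.82 with PBS and -0.36 with miR-122 and was 2.27-fold lower. Gtf3c5, a subunit of factor IIIC, was 1.68-fold lower, and Polr3e was 1.45-fold lower.

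The letters CACGCG, or CGCGTG on the other strand, a variant of the E-box, were found in the start regions of 11 of 35 members, or 31.4%. They were found in 10.5% of all genes with such a sequence and in 17.1% of those well above background on both arrays. The 35 members include Utp18, which was not well above background.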
